A study of Rattus norvegicus with 304 samples.

Results

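Fmo1 and Ugt1a1 are the genes described here, a pair of liver enzymes of foreign-compound metabolism that are not cytochromes P450. They were chosen by gene symbol, on any platform and in any group, and make up 2 of the 50 genes with a deposited fold change. On the OpenArray both were measured with 1 assay each (Rn00562945_m1 for Fmo1 and Rn00754947_m1 for Ugt1a1). The 7900HT data hold 2 raw rows for Fmo1 and 4 for Ugt1a1, and no assay name was read there.

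The study compared platforms for measuring mRNA in the liver of male rats aged 10 to 12 weeks, after a single oral gavage of TCDD (2,3,7,8-tetrachlorodibenzo-p-dioxin) or of the corn oil vehicle alone. Long-Evans rats are the TCDD-sensitive strain and Han/Wistar rats the resistant one. Real-time PCR was run on the OpenArray, a nanolitre plate with 49 targets and 150 samples, and on the 7900HT, a conventional instrument with 39 targets and 154 samples. All 150 OpenArray sample titles recur on the 7900HT, and a group held 3 to 7 rats, which the labels call biological replicates. In the dose arm livers were taken 19 h after dosing. Han/Wistar rats received 0.001, 0.01, 0.1, 1, 10, 100, 1000 or 3000 µg/kg, and Long-Evans rats 0.001, 0.01, 0.1, 1, 10, 50, 100 or 1000 µg/kg. In the time arm rats received 100 µg/kg. Han/Wistar livers were taken at 1.5, 3, 6, 10, 19, 96, 240 and 384 h, with corn oil groups at 1.5, 19, 96, 240 and 384 h, and Long-Evans livers at 3, 6, 10, 19, 96 and 240 h, with corn oil groups at 19, 96 and 240 h. The 100 µg/kg group at 19 h belongs to both arms.

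The authors' deposited table for each platform gives every gene 1 log2 fold change per group. The reference is the strain's own corn oil group of 19 h, which is therefore 0. No error per group comes with it, so groups are the units of every test below and the scatter of the corn oil groups over time is the only measure of background. All comparisons of a strain share that 19 h corn oil reference. None of 16 marker genes of hepatocytes and other liver cell types was a target, so the tissue label could not be checked. In bulk liver RNA, fewer cells of a type and less RNA per cell cannot be told apart.

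Fmo1 is a flavin-containing monooxygenase of the endoplasmic reticulum that adds oxygen to nitrogen and sulfur atoms of drugs and other foreign compounds. Ugt1a1 is a UDP-glucuronosyltransferase that joins glucuronic acid to bilirubin, to hormones and to many drugs, which makes them water-soluble for export in bile. TCDD acts through the aryl hydrocarbon receptor, a ligand-activated transcription factor that dimerises with ARNT and is known for inducing Cyp1a1, Cyp1a2 and other enzymes of this kind. Ugt1a1 is 1 of 8 rat Ugt1a genes in RefSeq (GRCr8) that end at the same base, since each has its own first exon and all share the later ones. The exon junction read by the Ugt1a1 assay is not given in the sources used here, so its values may include transcripts of the other Ugt1a genes.

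The 250 bases before each gene's RefSeq start in GRCr8 are shown, 5′ to 3′ on the gene's strand. They are given because both genes moved the same way with dose on the OpenArray. The Fmo1 window is chr13:77747667-77747916 on the minus strand, and no annotated gene spans it. The Ugt1a1 window is chr9:96248893-96249142 on the plus strand and lies within the spans of 7 other Ugt1a genes.
Fmo1: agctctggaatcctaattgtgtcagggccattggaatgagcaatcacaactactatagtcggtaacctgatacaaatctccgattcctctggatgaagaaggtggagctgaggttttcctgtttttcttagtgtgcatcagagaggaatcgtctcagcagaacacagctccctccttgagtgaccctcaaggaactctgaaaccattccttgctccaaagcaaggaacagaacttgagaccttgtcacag
Ugt1a1: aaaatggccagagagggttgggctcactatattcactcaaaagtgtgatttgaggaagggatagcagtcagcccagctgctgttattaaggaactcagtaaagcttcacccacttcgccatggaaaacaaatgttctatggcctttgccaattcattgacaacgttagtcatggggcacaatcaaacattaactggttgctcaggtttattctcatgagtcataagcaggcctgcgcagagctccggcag
No capitals appear because neither window, on either strand, holds the core of the aryl hydrocarbon receptor element (GCGTG), the core of the NRF2 element (TGACNNNGC) or a TATA box (TATAAA). The same letters occur in 25.9%, 10.1% and 12.9% of all 33469 windows of this length, in that order. The GC content was 46.4% for Fmo1 and 46.0% for Ugt1a1, against a median of 51.2% over all windows. These matches describe only the letters of the window.

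Fmo1 mRNA fell as the dose rose in both strains on the OpenArray. In Han/Wistar rats, the authors' deposited table gave log2 values of -0.13, -0.12, -0.15, -0.53, -0.98, -0.62, -0.95 and -0.65 from 0.001 to 3000 µg/kg. The 3 lowest doses lay inside the corn oil range of -0.18 to 0.05, and every dose from 1 µg/kg upward lay below it. Spearman's rho against log10 dose was -0.81 over 8 dose groups (two-sided exact permutation p = 0.0218, Benjamini-Hochberg adjusted p = 0.0381 over 49 targets), and Pearson's r was -0.82 (exact permutation p = 0.0171, adjusted p = 0.0300). From 10 µg/kg upward the deposited values ranged from -0.98 to -0.62 and did not follow the order of the doses.

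In Long-Evans rats the authors' deposited table listed Fmo1 at -0.08, -0.32, -0.29, -0.66, -0.99, -0.91, -0.74 and -1.52 from 0.001 to 1000 µg/kg. All 8 dose groups lay below the Long-Evans corn oil range of 0.00 to 0.27, and the 1000 µg/kg group was the lowest by a wide step. That range rests on 3 groups, and its lower end is the 19 h reference, which is 0 by definition. The 0.001 µg/kg group lay below it by less than the corn oil SD of 0.15. Here Spearman's rho was -0.88 (exact permutation p = 0.00724, adjusted p = 0.0127) and r was -0.92 (exact permutation p = 0.00117, adjusted p = 0.00336). A log2 value of -1.52 is 34.8% of the corn oil level.

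Ugt1a1 mRNA also fell with dose in both strains on the OpenArray. The authors' deposited table gave Han/Wistar values of -0.40, -0.38, -0.01, -0.54, -1.13, -1.09, -1.40 and -1.63, so that the highest dose had the lowest value. Corn oil groups of this strain ranged from -0.51 to 0.00, and the groups from 1 µg/kg upward lay below that range. The 1 µg/kg group did so by 0.03, less than the corn oil SD of 0.21. Spearman's rho was -0.88 (exact permutation p = 0.00724, adjusted p = 0.0187) and r was -0.89 (exact permutation p = 0.00491, adjusted p = 0.0115).

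Long-Evans Ugt1a1 values in the authors' deposited table were -0.01, -0.55, -0.23, -0.44, -1.03, -0.96, -0.89 and -1.32 from the lowest to the highest dose. All groups except the 0.001 µg/kg group lay below the corn oil range of -0.21 to 0.00. The 0.1 µg/kg group did so by 0.02, less than the corn oil SD of 0.10. The rank correlation was -0.83 (exact permutation p = 0.0154, adjusted p = 0.0235) and r was -0.91 (exact permutation p = 0.00283, adjusted p = 0.00577).

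Falling dose trends were common on this panel. Of the 49 OpenArray targets, 20.4% were called lower with dose in Han/Wistar rats and 26.5% in Long-Evans rats, while 38.8% and 53.1% were called higher. Without the 2 doses farthest from the median dose, r over the 6 remaining groups was -0.86 for Fmo1 and -0.90 for Ugt1a1 in Han/Wistar rats, and -0.86 and -0.77 in Long-Evans rats. Each of the 4 calls was lost without some single dose groups, although no trend changed sign. Leaving out a dose also leaves fewer groups to permute, which raises p at a similar rho. Without the 100 µg/kg group the Han/Wistar Fmo1 rho went from -0.81 to -0.82, while the exact permutation p rose from 0.0218 to 0.0341. A lost call therefore does not show that the omitted dose carried the trend. In Han/Wistar rats the Fmo1 call was lost without the 0.001, 0.01, 0.1, 1 or 100 µg/kg group (adjusted p up to 0.127 by exact permutation, rho -0.82 to -0.71) and the Ugt1a1 call without the 1, 1000 or 3000 µg/kg group (adjusted p up to 0.0836, rho -0.82). In Long-Evans rats the Fmo1 call was lost without the 0.001 or 1 µg/kg group (adjusted p up to 0.0557 by exact permutation, rho -0.82) and the Ugt1a1 call without the 0.001, 0.1, 1 or 1000 µg/kg group (adjusted p up to 0.0878, rho -0.82 to -0.75).

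**Figure D1:**
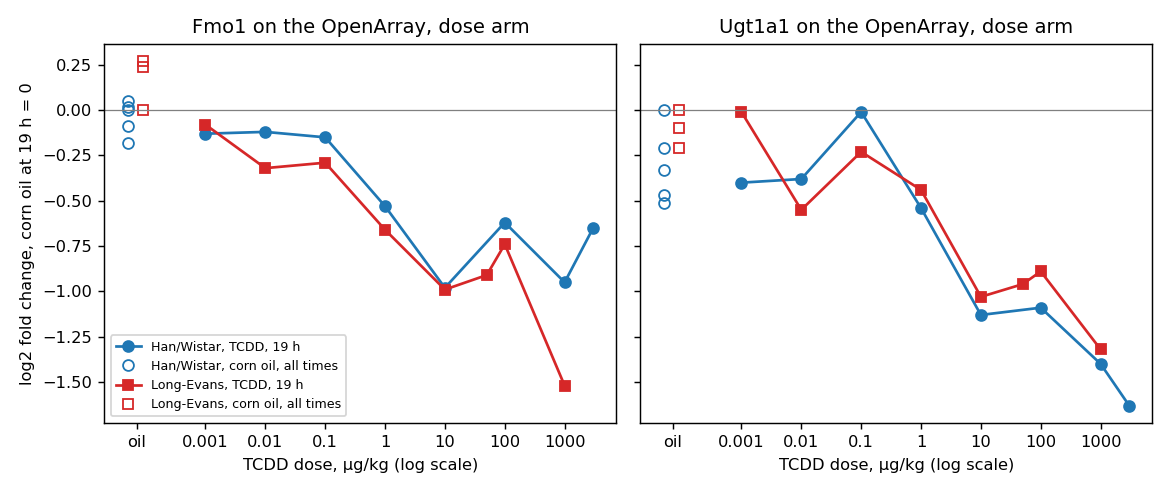
Log2 fold change on the OpenArray (y axis, corn oil at 19 h = 0) against TCDD dose in µg/kg (x axis, log scale) for Fmo1 (left) and Ugt1a1 (right), 1 point for each group of the deposited table. Filled circles are Han/Wistar and filled squares Long-Evans, with open symbols for corn oil groups of all times. Both genes lie below the corn oil groups from 1 µg/kg upward in both strains, Han/Wistar Ugt1a1 at 1 µg/kg by 0.03. Fmo1 is lowest in the Long-Evans 1000 µg/kg group at -1.52.

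The genes parted over the time course at 100 µg/kg: on the OpenArray Fmo1 was lowest at the last time in both strains, and Ugt1a1 in neither. In Han/Wistar rats the authors' deposited table gave OpenArray Fmo1 values of 0.31, -0.34, 0.21, -0.33, -0.62, -0.64, -1.96 and -2.25 from 1.5 to 384 h. The groups at 1.5 and 6 h lay above the corn oil range, and the groups at 3 h and from 10 h onward lay below it. The rank correlation against log10 hours was -0.93 over 8 time groups (two-sided exact permutation p = 0.00223, adjusted p = 0.0182), the lowest rho among the 49 targets. Pearson's r was -0.91 (exact permutation p = 0.000818, adjusted p = 0.00501), and without the 2 times farthest from the median it was -0.77. In this strain 12.2% of targets were called lower with time and 24.5% higher. The call was lost without the 1.5 h group (adjusted p = 0.0753 by exact permutation) or without the 384 h group (adjusted p = 0.0502).

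Long-Evans Fmo1 values in the authors' deposited table were -0.41, -0.37, -0.41, -0.74, -2.36 and -5.28 from 3 to 240 h. The first 3 times were close together, and the groups at 96 and 240 h lay far below the others. Here Spearman's rho was -0.83 over 6 time groups (exact permutation p = 0.0583, adjusted p = 0.0986) and did not pass, while r was -0.91 (exact permutation p = 0.00556, adjusted p = 0.0160). With each group centred on the mean or the median of the panel, rho was -1.00 and passed (exact permutation, adjusted p = 0.0151 and 0.0227). The panel mean itself rose from 0.69 at 3 h to 1.42 at 240 h. These settings moved the median rho over all targets from 0.66 to -0.14 and -0.09, so the passes are relative to a rising panel. Without the 2 times farthest from the median, rho was -0.40 and r was -0.76 over the 4 groups left. In Long-Evans rats 6.12% of targets were called lower with time by rho and 28.6% higher.

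Set against corn oil of the same time, Fmo1 at 240 h was 2.17% of the control level in Long-Evans rats and 29.0% in Han/Wistar rats. These shares come from differences in the authors' deposited table of -5.53 and -1.78 log2 units between TCDD and corn oil. At 96 h the matched differences computed from the authors' deposited table were -2.63 in Long-Evans rats and -0.69 in Han/Wistar rats, and at 384 h the Han/Wistar difference was -2.16, or 22.4% of corn oil. Centring on the panel mean made the Han/Wistar differences -1.90, -2.79 and -3.61 at 96, 240 and 384 h, and centring on the median made that of 96 h -1.33. The Han/Wistar panel mean at 240 h was itself 1.02 under TCDD and 0.02 in corn oil, so subtracting it lowers the difference of every target. The Fmo1 corn oil groups differed by at most 0.27 within a strain, so the groups at 240 h lie far outside the scatter of the vehicle. Of the 49 targets, Inmt alone, the indolethylamine N-methyltransferase, had a lower matched difference at 240 h, with -6.97 in Long-Evans and -4.90 in Han/Wistar rats computed from the authors' deposited table. The median over all targets at 240 h was 1.09 in Long-Evans and 0.55 in Han/Wistar rats.

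**Figure D2:**
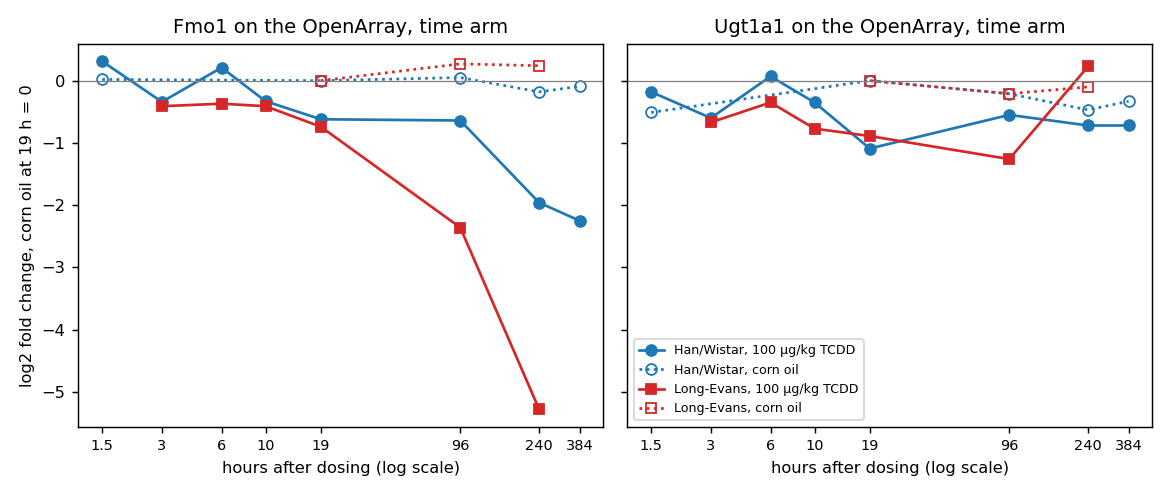
Log2 fold change on the OpenArray (y axis, corn oil at 19 h = 0) against hours after dosing (x axis, log scale) for Fmo1 (left) and Ugt1a1 (right), 1 point for each group of the deposited table. Filled symbols with solid lines are 100 µg/kg TCDD and open symbols with dotted lines corn oil; Fmo1 reaches -5.28 in Long-Evans and -1.96 in Han/Wistar rats at 240 h, where Ugt1a1 is at 0.23 and -0.72.

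Ugt1a1 showed no called change over the OpenArray time course on the values as deposited. In Han/Wistar rats the authors' deposited table gave -0.18, -0.60, 0.07, -0.35, -1.09, -0.55, -0.72 and -0.72 from 1.5 to 384 h, with the lowest value at 19 h. Its corn oil groups at 1.5, 96, 240 and 384 h were at -0.51, -0.21, -0.47 and -0.33, so the corn oil reference at 19 h was the highest of the 5. Matched differences computed from the authors' deposited table were 0.33, -1.09, -0.34, -0.25 and -0.39 for the times with a corn oil group, from 1.5 to 384 h. Centring on the panel mean changed them to -0.28, -1.94, -1.55, -1.25 and -1.84, and on the panel median to 0.06, -1.32, -0.98, -0.65 and -0.97. The rank correlation over time was -0.64 (exact permutation p = 0.0962, adjusted p = 0.175) and r was -0.51 (exact permutation p = 0.193, adjusted p = 0.296). With mean centring rho was -0.83 and passed (exact permutation, adjusted p = 0.0359). That setting moved the median rho over all targets from 0.31 to -0.45, so the pass is relative to the panel.

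In Long-Evans rats the authors' deposited table gave Ugt1a1 values of -0.67, -0.35, -0.77, -0.89, -1.26 and 0.23 from 3 to 240 h. The values of 3 to 96 h all lay below the corn oil groups at 0.00, -0.21 and -0.10, and the 240 h value lay above them. Spearman's rho was -0.09 (exact permutation p = 0.919, adjusted p = 0.939), and r had the opposite sign at 0.23 (exact permutation p = 0.674, adjusted p = 0.733). The matched difference at 240 h, 0.33 from the authors' deposited table, turned negative when groups were centred on the panel mean (-1.15) or median (-0.49), so no direction is given for it. The panel mean that centring subtracts was 1.42 under TCDD and -0.06 in corn oil at that time.

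Over all times together, neither gene passed the test of TCDD means against corn oil means on the OpenArray. The mean of the 100 µg/kg groups minus the mean of the corn oil groups was -0.66 for Fmo1 (exact permutation p = 0.160, adjusted p = 0.218) and -0.21 for Ugt1a1 (exact permutation p = 0.260, adjusted p = 0.344) in Han/Wistar rats. In Long-Evans rats it was -1.77 for Fmo1 (exact permutation p = 0.0952, adjusted p = 0.126) and -0.52 for Ugt1a1 (exact permutation p = 0.131, adjusted p = 0.165). Downward calls by this test were rare, at 2.04% of targets in each strain, against 53.1% and 30.6% called upward in Han/Wistar and Long-Evans rats. Centring on the panel mean brought Fmo1 (-1.69, adjusted p = 0.0161 by exact permutation) and Ugt1a1 (-1.24, adjusted p = 0.00761) past the threshold in Han/Wistar rats and Ugt1a1 (-1.53, adjusted p = 0.0254) in Long-Evans rats. The panel mean was higher under TCDD than in corn oil. Subtracting it moved the median over all targets from 0.58 to -0.45 in Han/Wistar and from 0.63 to -0.38 in Long-Evans rats. These passes are therefore relative to a rising panel.

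Ordered by level, the Long-Evans Fmo1 values of 240 h, 96 h and 1000 µg/kg at 19 h were each below the next by more than the corn oil range. Those were 3 of 15 steps between neighbours, and the other 12 were narrower than that range. In Han/Wistar rats 3 of 19 Fmo1 steps exceeded it: 384 h below 240 h, 240 h below the 10 µg/kg group, and the 1000 µg/kg group below the 3000 µg/kg group. Ugt1a1 had no such step among 19 in Han/Wistar rats and 2 among 15 in Long-Evans rats, where the 240 h group stood above corn oil at 19 h and the 96 h group below the 10 µg/kg group. Corn oil groups themselves scattered little on the OpenArray, with an SD of 0.09 for Fmo1 and 0.21 for Ugt1a1 over 5 Han/Wistar groups, and of 0.15 and 0.10 over 3 Long-Evans groups.

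On the OpenArray Fmo1 had lower values in Long-Evans than in Han/Wistar rats at 96 and 240 h, and no test of the strain difference passed on the values as deposited. The authors' deposited table put the Long-Evans value minus the Han/Wistar value of Fmo1 under 100 µg/kg at -0.12, -1.72 and -3.32 for 19, 96 and 240 h, and the last was the lowest among 49 targets. At 1000 µg/kg and 19 h the gap from the authors' deposited table was -0.58, and at 10 µg/kg it was -0.01. For Ugt1a1 the authors' deposited table gave gaps of 0.20, -0.71 and 0.94 at 19, 96 and 240 h, which differ in sign.

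The strain difference of Fmo1 over time, the mean gap over the 100 µg/kg times minus that over the corn oil times, was -1.20 (two-sided exact permutation over 84 splits, p = 0.0952, adjusted p = 0.467), the lowest of 49 targets. That of Ugt1a1 was -0.21 (exact permutation p = 0.619, adjusted p = 0.829). Over the 7 shared doses, rho of the gap against dose was -0.32 for Fmo1 (exact permutation p = 0.498, adjusted p = 0.853) and 0.00 for Ugt1a1 (exact permutation p = 1.00, adjusted p = 1.00). By exact permutation no target was called for a strain difference, 0% of 48 over dose and 0% of 49 over time, although 5 and 6 targets had an unadjusted p under 0.05. Centring on the panel median turned the Fmo1 rho over dose into -1.00, which passed (adjusted p = 0.0190 by exact permutation), and leaving out the 0.001 or the 1000 µg/kg pair turned it to 0.09. Without the 2 doses farthest from the median it was 0.90 over 5 doses, so no direction is given for it.

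**Figure D3:**
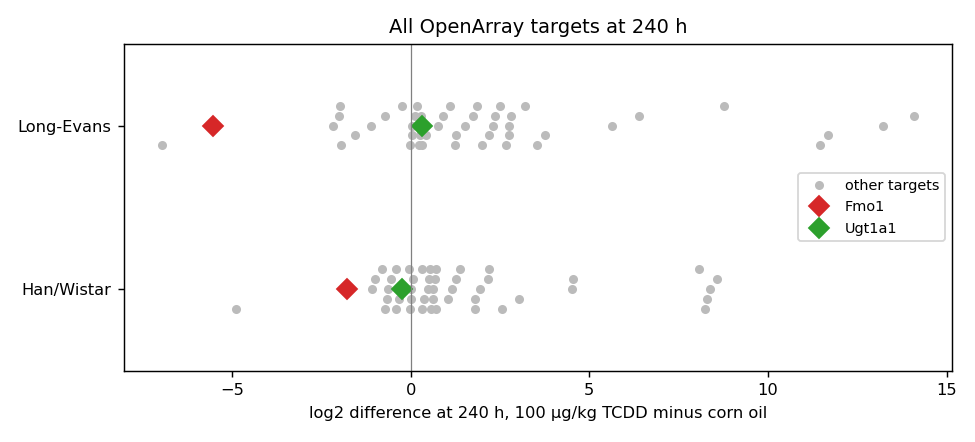
Difference at 240 h between 100 µg/kg TCDD and corn oil on the OpenArray in log2 units (x axis) for all 49 targets in each strain (y axis); the vertical spread of points has no meaning. Fmo1 (red) has 1 target below it in each strain, with -5.53 for Long-Evans and -1.78 for Han/Wistar rats, and Ugt1a1 (green) has 0.33 and -0.25.

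On the 7900HT Fmo1 at 240 h lay below the corn oil range in both strains, and neither gene passed a test there on the values as deposited. Matched to corn oil, Fmo1 at 240 h was lower by 6.05 log2 units in Long-Evans rats (TCDD -4.20 and corn oil 1.85 in the authors' deposited table) and by 2.97 in Han/Wistar rats (-2.69 and 0.29). These correspond to 1.51% and 12.7% of corn oil if the 7900HT values, too, are base 2 logarithms. Only Ahrr, the repressor of the aryl hydrocarbon receptor, had a lower Long-Evans difference among 39 targets. Its OpenArray difference there was 11.68, so the platforms gave Ahrr opposite signs. Among 38 Han/Wistar targets 3 were lower than Fmo1, namely Cyb5a, Ern1 and Ivns1abp. Their OpenArray differences were 0.68, -0.80 and -1.01. In Han/Wistar rats the authors' deposited table gave Fmo1 differences of 2.39, -1.10, -1.57 and -1.20 at 1.5, 19, 96 and 384 h, and in Long-Evans rats 0.91 and -1.83 at 19 and 96 h.

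Corn oil groups scattered far more on the 7900HT, which bears on each of its values. Fmo1 in corn oil ranged from -1.90 to 0.37 over 5 Han/Wistar groups in the authors' deposited table, with the 1.5 h group far below the others. Ugt1a1 in corn oil ranged from -2.62 to 3.34 (SD 2.36) in the same strain, against a median SD of 0.97 over all targets. Its 3.34 came from that same 1.5 h group. Every step between neighbouring levels of either gene was narrower than the corn oil range there.

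By dose, the 7900HT values of Fmo1 in the authors' deposited table were 0.06, -0.83, -1.98, -1.13, -1.17, -1.10, -1.88 and -2.58 in Han/Wistar rats. The rank correlation was -0.69 (exact permutation p = 0.0694, adjusted p = 0.208). Centring on the panel mean or median gave -1.00 and -0.98, which passed (adjusted p = 0.00193 and 0.0148 by exact permutation). The panel mean itself was -1.08 at 0.001 µg/kg and 0.16 at 3000 µg/kg. Centring on the mean or median moved the median rho over all targets from 0.25 to -0.40 and 0.00. These passes are therefore relative to a rising panel. In Long-Evans rats the authors' deposited table gave -1.58, -1.81, -2.00, -2.31, -4.16, -3.52, 0.91 and -4.08, with 7 of 8 groups below the corn oil range and the 100 µg/kg group inside it. Here Spearman's rho was -0.40 (exact permutation p = 0.327, adjusted p = 0.690). Without the 100 µg/kg group it was -0.89 (exact permutation p = 0.0123, adjusted p = 0.0763), and without the 1000 µg/kg group -0.21. Centring on the panel mean or median gave -0.31 and -0.33, which did not pass (exact permutation, adjusted p = 0.810 and 0.726). The panel median differed between these groups too, at 0.71 for 100 µg/kg against -2.07 for 10 µg/kg and -1.42 for 1000 µg/kg. The 100 µg/kg group thus stood apart for the panel as well as for Fmo1.

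No dose trend of Ugt1a1 was called on the 7900HT. The authors' deposited table gave Han/Wistar values of -3.37, -3.07, 0.63, -2.69, -3.80, -0.29, -3.77 and -0.54 and Long-Evans values of 0.36, -1.21, -1.46, -2.07, 0.58, 0.46, -1.86 and 0.05. Spearman's rho was 0.05 in Han/Wistar rats (exact permutation p = 0.935, adjusted p = 0.959) and 0.02 in Long-Evans rats (exact permutation p = 0.977, adjusted p = 0.977). The 7900HT targets have 2 or 4 rows per gene in the raw table, and with these row sets centred apart rho turned to -0.74 and -0.76 (exact permutation p = 0.0458 and 0.0368, adjusted p = 0.105 and 0.102). Groups at neighbouring doses differed by up to several log2 units in either direction. The dose trend was called lower for no 7900HT target in either strain (0% of 39 by exact permutation, and 2.56% called higher with dose in Han/Wistar rats, with 10 and 5 targets at an unadjusted p under 0.05 in either direction).

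Over time at 100 µg/kg, the 7900HT values of Fmo1 in the authors' deposited table were 0.48, -0.88, -0.71, 1.02, -1.10, -1.21, -2.69 and -0.83 in Han/Wistar rats and -0.22, 1.18, 1.29, 0.91, -1.16 and -4.20 in Long-Evans rats. The lowest group in each strain was that of 240 h, and the Han/Wistar group at 384 h was above it. The rank correlation was -0.55 (exact permutation p = 0.171, adjusted p = 0.230) and -0.60 (exact permutation p = 0.242, adjusted p = 0.459). Without the 2 times farthest from the median, rho was -0.60 in Han/Wistar rats and turned to 0.40 in Long-Evans rats. Ugt1a1 was at 1.70, 1.23, 2.28, -2.57, -0.29, -2.12, -0.93 and -2.06 in Han/Wistar rats and at -2.32, -2.62, -2.24, -1.86, -1.76 and -0.24 in Long-Evans rats, in the authors' deposited table. For Ugt1a1 rho was -0.62 in Han/Wistar rats (exact permutation p = 0.115, adjusted p = 0.224) and 0.94 in Long-Evans rats (exact permutation p = 0.0167, adjusted p = 0.127). With row sets centred apart both were negative, at -0.76 and -0.37 (exact permutation, adjusted p = 0.119 and 0.652), so no direction is given for Long-Evans rats. Called with time were 2.56% of the 7900HT targets in Han/Wistar rats, all higher, and 0% in Long-Evans rats (7 at an unadjusted exact permutation p under 0.05).

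The shift of the 100 µg/kg groups against corn oil on the 7900HT was -0.56 for Fmo1 (exact permutation p = 0.375, adjusted p = 0.487) and 0.19 for Ugt1a1 (exact permutation p = 0.874, adjusted p = 0.897) in Han/Wistar rats. In Long-Evans rats it was -1.21 for Fmo1 (exact permutation p = 0.440, adjusted p = 0.588) and -1.34 for Ugt1a1 (exact permutation p = 0.0476, adjusted p = 0.116). Centring changed the Ugt1a1 calls: row sets centred apart gave -2.47 in Han/Wistar rats, which passed (exact permutation, adjusted p = 0.00866). In Long-Evans rats mean, median and row-set centring gave -2.15, -1.98 and -3.33, which all passed (exact permutation, adjusted p = 0.0464 each). The Long-Evans median over all targets moved from 0.56 to -0.25, -0.08 and -0.01 in these settings. In Han/Wistar rats row-set centring moved it from 0.07 to -0.27. These passes are therefore relative to the panel. Of the 7900HT targets, 20.5% were called lower and 15.4% higher by this test in Han/Wistar rats, and 0% either way in Long-Evans rats by exact permutation (16 at an unadjusted p under 0.05). The strain difference over time was -0.06 for Fmo1 (exact permutation p = 0.976, adjusted p = 1.00) and -2.43 for Ugt1a1 (exact permutation p = 0.131, adjusted p = 0.300) as deposited. For Fmo1 it was -0.09 with mean centring, -0.98 with median centring and -1.02 with row sets centred apart. It passed in none of these settings (exact permutation, adjusted p = 0.866, 0.567 and 0.536). The Long-Evans minus Han/Wistar value of Fmo1 under 100 µg/kg was 2.01, 0.05 and -1.51 at 19, 96 and 240 h. The OpenArray gap of -1.72 at 96 h was thus not seen on the 7900HT. Over the shared doses rho of the strain gap was -0.14 for Fmo1 (exact permutation p = 0.783, adjusted p = 0.877) and 0.18 for Ugt1a1 (exact permutation p = 0.713, adjusted p = 0.877).

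A correlation between the platforms was called for neither gene over all TCDD groups. Over the 15 Han/Wistar TCDD groups, rho between OpenArray and 7900HT values was 0.60 for Fmo1 (two-sided permutation p = 0.0217, adjusted p = 0.0698 over 38 shared targets; r = 0.47, permutation p = 0.0793, adjusted p = 0.159) and 0.39 for Ugt1a1 (permutation p = 0.158, adjusted p = 0.250; r = 0.40, permutation p = 0.136, adjusted p = 0.235). Over the 13 Long-Evans groups rho was 0.49 for Fmo1 (permutation p = 0.0884, adjusted p = 0.210; r = 0.47, permutation p = 0.0919, adjusted p = 0.159) and -0.19 for Ugt1a1 (permutation p = 0.531, adjusted p = 0.611; r = -0.04, permutation p = 0.889, adjusted p = 0.889). The platforms were called correlated for 23.7% of the 38 shared targets over Han/Wistar groups and for 15.8% over Long-Evans groups. With only the groups of at least 1 µg/kg, Fmo1 in Long-Evans rats reached rho 0.81 over 10 groups (permutation p = 0.00722, adjusted p = 0.0392), while its r of 0.52 did not pass (permutation, adjusted p = 0.184). In that setting 7 of 38 targets were called in Long-Evans rats. Ugt1a1 had rho -0.59 there (permutation, adjusted p = 0.195), and in Han/Wistar rats Fmo1 had 0.67 and Ugt1a1 0.41 over 12 groups (permutation, adjusted p = 0.0988 and 0.365). Values had the same sign on both platforms in 12 of 15 Han/Wistar groups for each gene, and in 10 of 13 Long-Evans groups for Fmo1 and 8 of 13 for Ugt1a1. Most TCDD values of either gene were negative on each platform, so equal signs are frequent even without agreement. No share over the panel was computed for these counts.

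**Figure D4:**
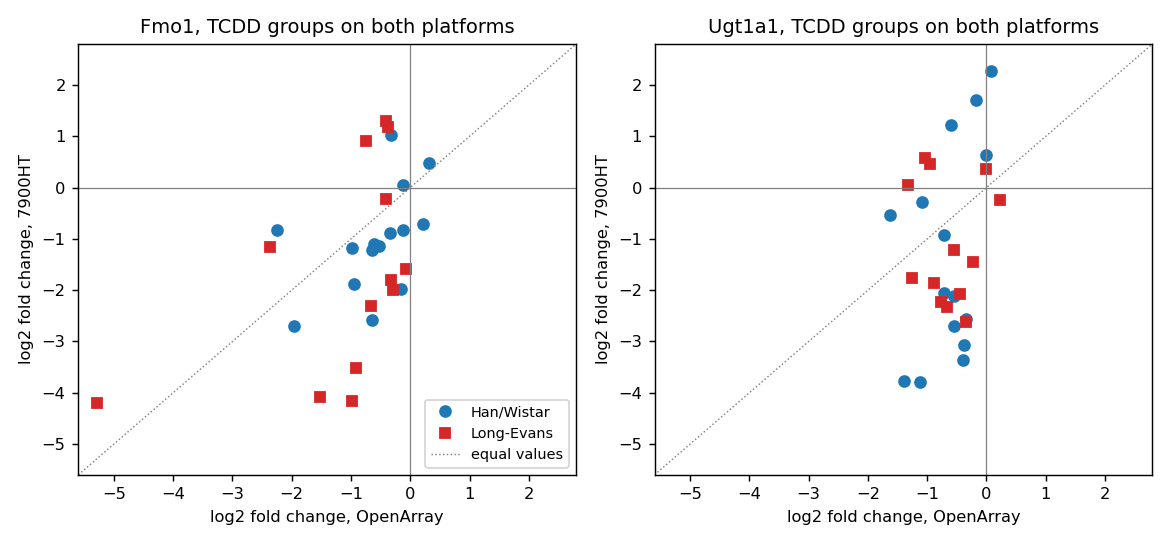
OpenArray (x axis) against 7900HT (y axis) log2 fold changes of Fmo1 (left) and Ugt1a1 (right), 1 point for each TCDD group of Han/Wistar (circles) or Long-Evans rats (squares), with a dotted line of equal values. Fmo1 of the Long-Evans 240 h group is low on both platforms (-5.28 and -4.20), while Ugt1a1 covers -3.80 to 2.28 on the 7900HT and only -1.63 to 0.23 on the OpenArray.

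Most of the other measured enzymes of foreign-compound metabolism were called higher with dose. Of 29 listed, 8 were OpenArray targets, and with dose 5 of the 8 were called higher in each strain: the monooxygenases Cyp1a1 and Cyp1b1, the aldehyde dehydrogenase Aldh3a1, the quinone reductase Nqo1, and Ccbl1, a cysteine conjugate beta-lyase. Over all targets 38.8% were called higher in Han/Wistar and 53.1% in Long-Evans rats, so the Long-Evans count is near the share of the panel. Inmt was the 1 called lower in each strain, and Cyp1a2 and the electron carrier Cyb5a were not called. The list's median rho was 0.86 in Han/Wistar and 0.90 in Long-Evans rats, beside 0.64 and 0.79 over all targets. At 100 µg/kg and 19 h the authors' deposited table had Han/Wistar values of 9.99 for Cyp1a1, -4.47 for Inmt and -0.62 for Fmo1, and Long-Evans values of 9.47, -3.95 and -0.74. With time, 5 of the 8 were called higher and Inmt lower in Han/Wistar rats, and 3 higher and Inmt lower in Long-Evans rats. The shares of all targets called higher with time were 24.5% and 28.6%, and lower 12.2% and 6.12%. On the 7900HT, 1 of 8, Cyp1b1, was called higher with dose in Han/Wistar rats and none in Long-Evans rats. The list was drawn up with earlier results of these data known and is not independent evidence of a direction.

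Of 10 listed regulators of such enzymes, 4 were OpenArray targets. With dose, Tiparp, an ADP-ribosyltransferase that represses the receptor, and Nfe2l2, which encodes NRF2, were called higher in Han/Wistar rats, and all 4, with Ahr and Ahrr, in Long-Evans rats. The panel shares of 38.8% and 53.1% called higher apply here too, and the Han/Wistar count is near its share. None was called lower, and the median rho of the 4 was 0.76 in Han/Wistar and 0.87 in Long-Evans rats. For the receptor gene Ahr under 100 µg/kg, the authors' deposited table gave Han/Wistar values of -0.08 (19 h) and 0.05 (240 h) and Long-Evans values of 0.56 and 2.20.

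The targets whose OpenArray pattern was most like that of Fmo1 over the 28 TCDD groups of both strains were Hagh, a glyoxalase (Pearson's r = 0.83), Ghr, the growth hormone receptor (r = 0.78), and Glud1, glutamate dehydrogenase (r = 0.76). By Spearman's rho Glud1 came first with 0.93, and Hagh had 0.56. The order differed by strain, with r of 0.64, 0.51 and 0.87 for Hagh, Ghr and Glud1 in Han/Wistar rats. In Long-Evans rats these were 0.88, 0.87 and 0.71. At 240 h in Long-Evans rats the differences to corn oil computed from the authors' deposited table were -1.99 for Hagh, -1.57 for Ghr and -1.95 for Glud1, smaller than the -5.53 of Fmo1. For Ugt1a1 the most alike were Slco1a1, an organic anion transporter (r = 0.77), Sdc1, the proteoglycan syndecan (r = 0.72), and Ern1, a sensor of endoplasmic reticulum stress (r = 0.71). Their rho was 0.78, 0.74 and 0.76. By strain, r was 0.93, 0.61 and 0.73 in Han/Wistar rats and 0.63, 0.85 and 0.68 in Long-Evans rats. Slco1a1 was not particular to Ugt1a1, since its rho with Fmo1 was 0.87. Fmo1 and Ugt1a1 themselves had r = 0.06 and rho = 0.63, with r = 0.48 in Han/Wistar and -0.19 in Long-Evans rats alone. All targets were read from the same liver samples, and the points of a strain share its 19 h reference. These correlations are therefore descriptions without a test.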

How the data were processed

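Liver cDNA of each rat was amplified by real-time PCR, per the labels' protocols. The log2 fold changes are used as deposited, 1 per target and group, relative to the strain's 19 h corn oil group, where they are 0; the file headers state no log base. On the OpenArray, 52.7% of values were whole multiples of 0.001 cycle divided by 2520 (0.302% by chance), so they are linear in cycles; on the 7900HT 0.379% were, and base 2 is taken there. R 2.12.2 was used, per the submitters' processing notes. How the authors chose reference genes and averaged rats is not given in the sources read. The 304 columns of raw cycle values carry animal codes that match no label and were not used.

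Dose and time trends used all orders of the groups (40320, 5040 or 720), shifts all splits (1287 or 84), platform agreement random permutations. All tests were two-sided and adjusted across targets (Benjamini-Hochberg, threshold 0.05), with Python 3.11.15 and scipy 1.17.1. Dose trends, time trends and shifts were adjusted within each strain and platform, and only these were tried on simulated data. Strain differences were adjusted within each platform, and platform agreement within each strain over the 38 shared targets. Trends needed at least 6 groups. P-values measure the spread between groups. Named are the members, the 3 targets most like each by Pearson's r, and measured list genes; members and lists were chosen with earlier results of these data known. Promoter windows are from RefSeq (GRCr8); both genes matched by symbol.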

Additional observations from a re-analysis of the deposited data

Results flagged for a closer look

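One value stood apart from the other corn oil groups of its strain. On the 7900HT, Fmo1 in the Han/Wistar corn oil group at 1.5 h stood at -1.90 in the authors' deposited table. The remaining 4 corn oil groups of the strain lay between 0.00 and 0.37. Its gap to the nearest group was 0.84 of the whole range, above Dixon's critical value of 0.71 for 5 values, which chance exceeds in about 1 in 20 sets. Without it, the Fmo1 time course shift of that strain on the 7900HT moved from -0.56 to -0.99 and still did not pass (exact permutation, adjusted p = 0.487 and 0.158). The matched difference of 2.39 at 1.5 h rests on this group, while on the OpenArray the same comparison gave 0.29, in the authors' deposited table. The panel median of this 7900HT group was -1.23, against 0.29, 0.10 and 0.42 in corn oil at 96, 240 and 384 h. Fmo1 was only 8th from the lowest of 39 targets there, and Ugt1a1 stood at 3.34. The displacement was thus not particular to Fmo1.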

How the results depend on the processing

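With 1 deposited value per group, groups were left out in place of replicates (the Fmo1 dose trend in Han/Wistar rats then ranged from -0.93 to -0.71). No paired analysis was possible because the deposited columns carry no replicate numbers. Of the alternative values on the OpenArray or both platforms, 161 kept direction and call (or, untested, moved less than the spread), 40 untested ones moved by more, 16 lost the call, 10 gained it and 7 reversed. On the 7900HT the counts were 185 kept, 12 moved, 5 gained and 32 reversed. Centring was tried on the mean or median of the panel, and for the 7900HT also on each of its sets of targets with 2 or 4 rows per gene. Centring of matched differences was added after seeing the data. On the OpenArray the panel mean was higher under 100 µg/kg TCDD than in corn oil, so centring on it lowers TCDD values relative to corn oil. Other causes of the changes below were not tested.

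On the OpenArray, leaving out single doses gave rho of -0.93 to -0.82 for Ugt1a1 in Han/Wistar rats, and -0.93 to -0.82 for Fmo1 and -0.86 to -0.75 for Ugt1a1 in Long-Evans rats. Leaving out single times gave the Fmo1 time trend -1.00 to -0.89 in Han/Wistar rats, and the 5 groups left in Long-Evans rats were too few. The Fmo1 strain difference over dose ranged from -0.49 to 0.09, and was -1.00 with median centring. Time course shifts under mean centring were -1.69 for Fmo1 and -1.24 for Ugt1a1 in Han/Wistar rats and -1.53 for Ugt1a1 in Long-Evans rats, and -0.65 for Ugt1a1 in Han/Wistar rats under median centring. All of these passed, as did the Ugt1a1 time trend in Han/Wistar rats at -0.83 with mean centring. The Fmo1 time trend in Long-Evans rats passed at -1.00 with either centring and at r = -0.91, where Ugt1a1 had r = 0.23. Mean centring turned the matched differences at 1.5 h to -0.33 for Fmo1 and -0.28 for Ugt1a1 in Han/Wistar rats, and that of Ugt1a1 at 240 h in Long-Evans rats to -1.15 (-0.49 with the median). It also moved the Han/Wistar differences at 96, 240 and 384 h, to -1.90, -2.79 and -3.61 for Fmo1 and -1.55, -1.25 and -1.84 for Ugt1a1. Groups of at least 1 µg/kg gave Fmo1 a platform rho of 0.81 in Long-Evans rats.

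On the 7900HT, the Fmo1 dose trend in Han/Wistar rats was -1.00 with mean and -0.98 with median centring, both relative to a rising panel. The Ugt1a1 dose trend was -0.07 (mean), -0.74 (row sets) and -0.22 (corn oil as lowest dose) in Han/Wistar rats and -0.76 (row sets) in Long-Evans rats, and ranged from -0.18 to 0.32 and from -0.11 to 0.29 without single doses. The Ugt1a1 shift in Han/Wistar rats was -0.37 (mean), -2.47 (row sets; exact permutation, adjusted p = 0.00866) and -0.20 (matched times), and -0.33 to 1.16 without single groups. In Long-Evans rats it was -2.15 (mean), -1.98 (median) and -3.33 (row sets), all past the threshold, and the Ugt1a1 time trend was -0.37 (row sets). The Fmo1 strain difference over dose was 0.21 (mean and median), 0.43 (row sets) and r = 0.06, and -0.54 to 0.26 without single doses; that of Ugt1a1 was r = 0.00, and -0.20 to 0.43. The Fmo1 strain difference over time ranged from -0.38 to 0.41 without single groups, and was -0.09 (mean), -0.98 (median) and -1.02 (row sets). The Fmo1 dose trend in Long-Evans rats ranged from -0.89 to -0.21 without single doses, and was -0.31 (mean), -0.33 (median) and -0.33 (row sets).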
